A study of Clytia hemisphaerica and Astroides calycularis and Pocillopora acuta with 17 samples.

Results

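The genes described here are the 150 Clytia hemisphaerica transcripts whose level in planula larvae at 66 hours postfertilization (hpf) stood highest over the level at 52 hpf in single-cell RNA-seq. The level is CPM, the unique molecular identifiers (UMIs) of a gene per 1000000 UMIs of its library, summed over all cells with 300 to 75000 UMIs, 200 to 5000 genes and at most 20% mitochondrial UMIs. Each age was captured as 2 technical replicates, so that 2 ratios of CPM + 5 were formed, one per pair of replicates, and genes were ranked by the lower of the 2 log2 ratios. Of 18761 features, 10322 had at least 100 UMIs over the 4 libraries and were ranked. The 6 ranked genes above the lowest member that the study calls by a name were passed over. Because these ratios chose the genes, they are given as a description and carry no test.

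Clytia is a hydrozoan jellyfish, and its planula is a ciliated, torpedo-shaped larva of an outer epidermis and an inner gastroderm that swims with its aboral pole forward and later settles on it to become a polyp. The samples were whole planulae with no treatment in the labels. Larvae of 66 hpf and of 52 hpf came from separate fertilizations of the same batch of medusae, one dissociation of pooled larvae for each age, fixed in ACME (acetic acid and methanol). 2 earlier samples accompany them, both assigned by the study's supplement to 52 hpf planulae, an age which the sample labels leave out. One of these was fixed in ACME, with 5 labelled libraries in 1 matrix and no map from cells to libraries. The other was fixed in methanol. They are called the ACME sample and the methanol sample below. The labels do not say whether the 5 libraries came from 1 dissociation, and the matrix was used as 1 sample. With 1 biological sample for each newer age, no test between samples was possible, and intervals cover counting error only. Age cannot be told apart from the fertilization, the dissociation or the capture that produced each sample.

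A planula holds secretory and mucous cells, stinging cells, neurons, epidermal cells with muscle processes, gastrodermal cells and multipotent interstitial cells. Gland and mucous cells fill with a few very abundant secreted products, so that the RNA of such a cell can be dominated by a handful of transcripts. The level of such a transcript summed over a whole larva depends on how many of those cells were captured, on how many UMIs each of them gave and on the share of the gene among those UMIs. These quantities were separated below. The files, the annotation and the reference tables used here pair none of the member IDs with a gene name, so members are given by ID, by the Pfam domain or predicted signal peptide that the study's tables record, and by the cells that held them.

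The limits on cells left 2611 and 2835 cells at 66 hpf, 1409 and 1299 at 52 hpf, 4416 in the ACME sample and 2802 in the methanol sample, with 5355639 to 17336231 UMIs per matrix. The median cell held 1377 to 1643 UMIs in the first 5 matrices and 941 in the methanol matrix. Mitochondrial UMIs made up 1.18 to 2.30% of a matrix. No 2 matrices shared more than 4 cell barcodes. Cells over 10000 UMIs were 9.45 to 15.2% of the cells of the ACME-fixed matrices, against 2.14% of the methanol matrix. Over all 10322 ranked genes the median log2 ratio of 66 hpf was 0.08 over 52 hpf, -0.35 over the ACME sample and -0.82 over the methanol sample, and member ratios against the last 2 samples are read beside these medians.

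The rule values of the members lay between 0.92 and 2.55. The highest was that of XLOC_043846, with 125 and 139.7 CPM in the 66 hpf replicates, against 17.1 and 18.5 CPM in the 52 hpf replicates, 95.3 CPM in the ACME sample and 111 CPM in the methanol sample. Next came XLOC_000115, a gene for a protein with a signal peptide, with 1607 and 1956 CPM in the 66 hpf replicates, against 265 and 367 CPM in the 52 hpf replicates, 513 CPM in the ACME sample and 347 CPM in the methanol sample. MSTRG.5921 followed, with 56.5 and 71.5 CPM in the 66 hpf replicates, against 8.20 and 8.86 CPM in the 52 hpf replicates, 64.2 CPM in the ACME sample and 226 CPM in the methanol sample. These first 3 already show the different ways in which the earlier samples stood to the newer pair. XLOC_000115 was higher at 66 hpf than in every other sample. XLOC_043846 was low in the newer 52 hpf sample alone, and MSTRG.5921 was higher still in methanol cells than at 66 hpf. At the lower end, the last genes inside were XLOC_001061, XLOC_008415 and MSTRG.7393, with rule values of 0.924, 0.924 and 0.923, and the first outside were XLOC_012241, XLOC_018969 and XLOC_041422, with 0.923, 0.923 and 0.922. The values on both sides of this edge were thus nearly the same. The lower 66 hpf replicate was above the higher 52 hpf replicate for each of the 150 members, and 141 of them were at least 2-fold higher at 66 hpf with the replicates summed, against 1.84% of all ranked genes. The 150 members made up 4.17 and 3.78% of all UMIs at 66 hpf, against 1.13 and 1.33% at 52 hpf, 1.81% in the ACME sample and 1.41% in the methanol sample.

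The ACME and methanol levels were not used by the rule. At 66 hpf, 31 of the 150 members were at least 2-fold above the ACME sample, against 1.16% of all ranked genes, and 2 were at least 2-fold below it, against 7.06%. Any excess over the ACME sample was seen for 103 members, against 20.4%. Their median log2 ratio over the ACME sample was 0.28. Over the methanol sample, 42 members were at least 2-fold higher at 66 hpf, against 3.45% of all ranked genes, and 31 members were at least 2-fold lower, against 41.5%. Any excess over the methanol sample was seen for 78 members, against 20.5%. The median member ratio over the methanol sample was 0.14. The 66 hpf level entered the choice of members, so a share of higher members above the background is not read as a result about them.

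Only 24 members were at least 2-fold higher at 66 hpf than in all 3 samples of 52 hpf, against 0.31% of all ranked genes. A larger set of 59 members was instead at least 2-fold higher in both the ACME sample and the methanol sample than in the newer 52 hpf sample, against 11%. For the remaining 67 neither held. Taking the 4 samples by rank, 66 hpf was the highest for 69 members, against 6.39% of all ranked genes, and the newer 52 hpf sample was the lowest for 113, against 54.4%. Both earlier samples were above the 66 hpf level for 38 members, against 72.1% of all ranked genes. For the members outside those 69, the description as highest at 66 hpf held only within the newer pair of samples. The newer 52 hpf level was low for a member by choice, so an excess over it is not read as a result. In the ACME sample, 74 members were at least 2-fold higher than in the newer 52 hpf sample, against 12.1%. In the methanol sample 77 were so, against 46.9%. With the median of all ranked genes subtracted from each ratio, a setting chosen after seeing the data, the counts were 40, against 3.41%, and 52, against 11%.

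**Figure D1:**
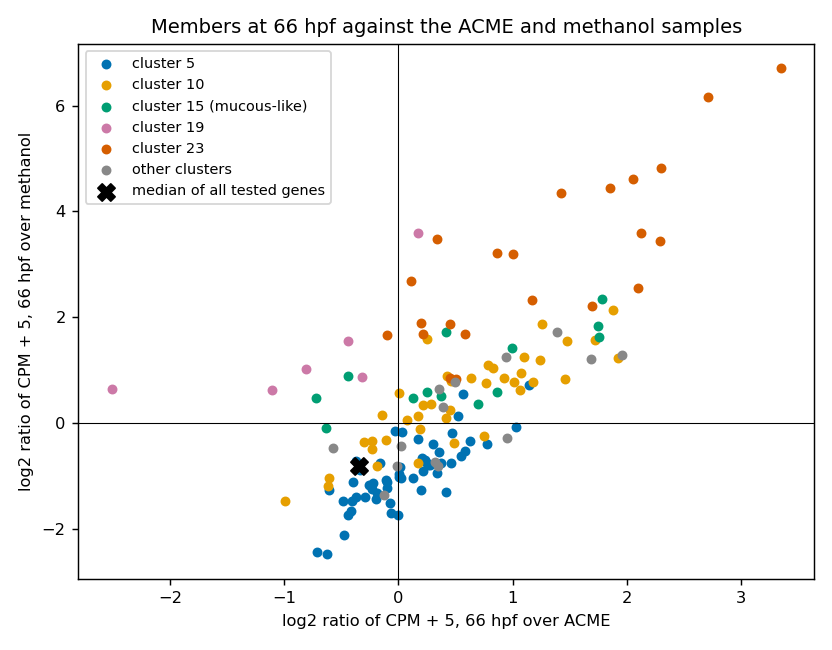
Log2 ratio of CPM + 5 at 66 hpf over the ACME sample (x axis) and over the methanol sample (y axis) for each of the 150 members (points, coloured by the cluster in which the member was highest), with the median of the 10322 ranked genes as a cross at -0.35 and -0.82. Members led by cluster 23 sit at the upper right, up to 3.35 and 6.70, and those led by cluster 5 lie mostly to the right of the cross at about its height.

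To find the cells that held the members, 15372 cells of the 6 matrices were clustered with the 150 genes left out of the 3104 variable genes, which gave 26 clusters. Clusters were named only from fixed marker lists; those that met no list are given by number and leading genes. A member was assigned to the cluster in which its mean CPM over the 4 samples was highest, its leading cluster. Most members were led by 5 clusters: cluster 5 led 55, cluster 10 led 40, cluster 23 led 22, the mucous-like cluster 15 led 13 and cluster 19 led 6. The other 14 were led by 8 further clusters. Of the 150 members, 77 had at least 50% of their UMIs in a single cluster. That share was not computed for all ranked genes, so it is not read as a trait of the members. The level in the leading cluster was 3.95 to 921 times that in all other cells, with a median of 32.1. A leading cluster is high by choice, so these folds are a description only.

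**Figure D2:**
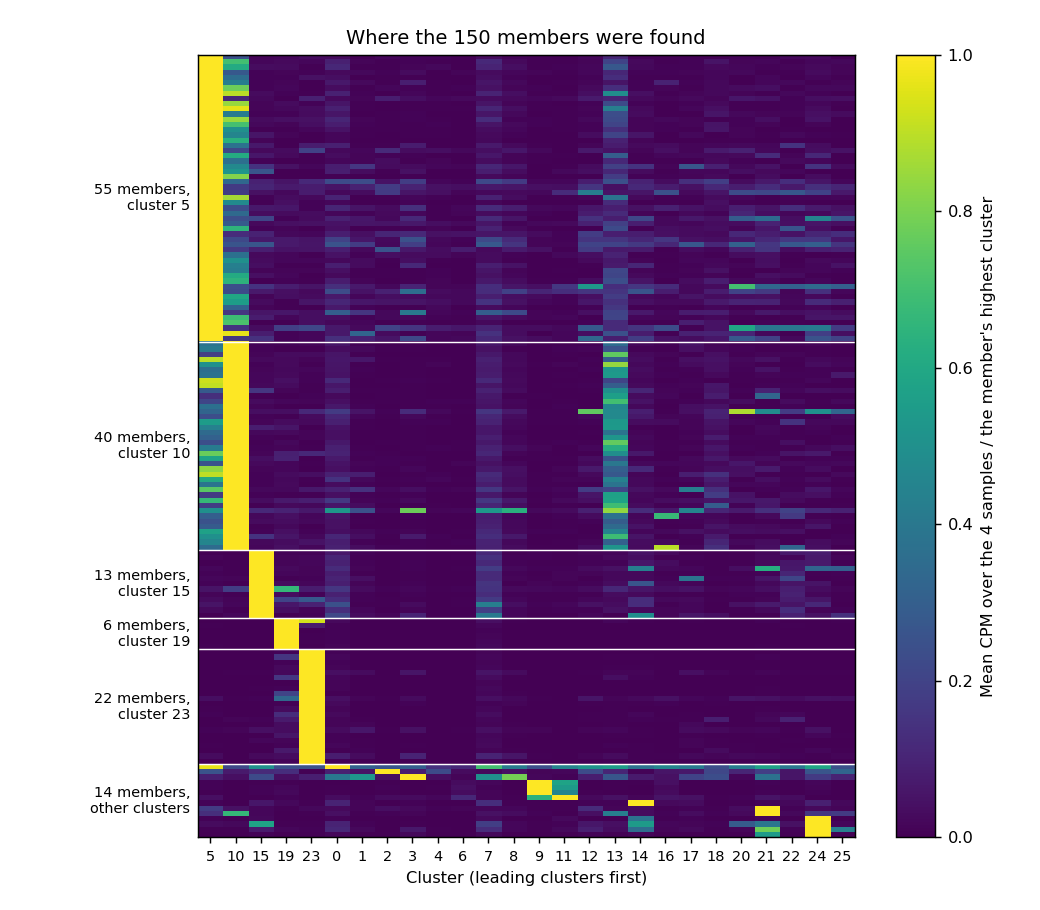
Mean CPM of each of the 150 members (rows, grouped by leading cluster) in each of the 26 clusters (columns, the 5 main leading clusters first), as a share of the member's highest cluster. Members led by cluster 5 were shared with cluster 10, those led by cluster 10 with clusters 5 and 13, and those led by cluster 23 had a median of 91.8% of their UMIs there.

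Of the 5 most abundant members at 66 hpf, 4 belonged to cluster 23, a group of 179 cells led by XLOC_037406, XLOC_037910, a gene with collagen triple helix repeats, and XLOC_044124. It met none of the marker lists and was not named. Its 22 members included 11 on an oral list of 140 transcripts and none on an aboral list of 469; both lists come from bulk RNA-seq of bisected 52 hpf planulae, other libraries than those used here. Of these 22, 7 encode proteins with a predicted signal peptide. The median member had 91.8% of its UMIs in these cells.

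XLOC_006762, whose protein carries a C-type lectin domain, a fold that in many animals binds sugars, was the most abundant of all members. It had 7772 and 6580 CPM in the 66 hpf replicates, against 1470 and 2367 CPM in the 52 hpf replicates, 2679 CPM in the ACME sample and 348 CPM in the methanol sample. The 66 hpf values were above all others, and the ACME value was close to the upper 52 hpf replicate. MSTRG.461, with a signal peptide and no recorded domain, had 4951 and 4089 CPM at 66 hpf, against 632 and 1432 CPM at 52 hpf, 689 CPM in ACME cells and 58.6 CPM in methanol cells. MSTRG.462, likewise secreted by prediction, had 3925 and 2969 CPM at 66 hpf, against 1017 and 922 CPM at 52 hpf, 334 CPM in ACME cells and 28.2 CPM in methanol cells. Both were lowest in methanol cells; in ACME cells MSTRG.461 lay within the range of the 52 hpf replicates and MSTRG.462 below it. The log2 ratio of MSTRG.462 at 66 hpf was 3.35 over the ACME sample and 6.70 over the methanol sample, the highest of any member in both. FG-GAP-like repeats, known from the blades of integrin alpha chains, were recorded for MSTRG.17015 and XLOC_031850. MSTRG.17015 had 3983 and 3106 CPM at 66 hpf, against 824 and 1312 CPM at 52 hpf, 978 CPM in ACME cells and 158 CPM in methanol cells. XLOC_031850 had 1845 and 1325 CPM at 66 hpf, against 379 and 694 CPM at 52 hpf, 318 CPM in ACME cells and 51.5 CPM in methanol cells. In both genes each 66 hpf replicate was above every value from 52 hpf larvae.

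Collagen triple helix repeats, the rod-forming unit of extracellular matrix collagens, were recorded for 2 members. XLOC_037899 had 548 and 507 CPM at 66 hpf, against 164 and 236 CPM at 52 hpf, 416 CPM in ACME cells and 42.6 CPM in methanol cells. XLOC_020578 had 863 and 587 CPM at 66 hpf, against 371 and 286 CPM at 52 hpf, 172 CPM in ACME cells and 24.8 CPM in methanol cells. The first was thus nearly as high in ACME cells as at 66 hpf and the second was not, with log2 ratios of 0.34 and 2.05 over the ACME sample. MSTRG.14787 encodes a trypsin-like serine peptidase and XLOC_013864 a protein of the 2OG-Fe(II) oxygenase superfamily, to which collagen prolyl hydroxylases belong. Their levels were lower, with 65 and 53 CPM at 66 hpf, against 29.7 and 23 CPM at 52 hpf, 54.3 CPM in ACME cells and 5.04 CPM in methanol cells for the peptidase. For XLOC_013864 the values were 47.8 and 46.9 CPM at 66 hpf, against 22.4 and 19.4 CPM at 52 hpf, 31.8 CPM in ACME cells and 24.3 CPM in methanol cells. XLOC_019297 and XLOC_034411, with no recorded domain, were among the 5 members highest over the ACME sample, at log2 ratios of 2.29 and 2.13. Of the 22 members, 11 were at least 2-fold above the ACME sample and 20 at least 2-fold above the methanol sample at 66 hpf, against 1.16 and 3.45% of all ranked genes.

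The share of cluster 23 cells did not separate the samples. It held 1.23% (0.955 to 1.56%) of cells at 66 hpf, against 1.11% (0.749 to 1.58%) at 52 hpf, 1.29% (0.979 to 1.67%) in the ACME sample and 0.892% (0.578 to 1.31%) in the methanol sample (exact binomial intervals), which overlap. The cells differed in depth instead: their median UMI count was 15261 at 66 hpf, against 1312 at 52 hpf, 2201 in ACME cells and 921 in methanol cells. At 66 hpf 42 of 67 cells had over 10000 UMIs, against 7 of 30 at 52 hpf, 19 of 57 in the ACME sample and 0 of 25 in the methanol sample. The cluster consequently gave 5.16% of all UMIs at 66 hpf and 1.62% at 52 hpf, and at 52 hpf its 5 deepest cells carried 67.5% of these, against 18% at 66 hpf. Within the cluster, summed over its cells, the members differed little between the ages: the median log2 ratio of 66 hpf over 52 hpf was 0.12, the range -0.42 to 0.85, and 0 of 22 were at least 2-fold higher, against 4.65% of the 1419 genes with at least 20 UMIs in these cells. Without 52 hpf replicate 2 the count was 2 of 22 and the median 0.06. Outside the cluster the median log2 ratio was 0.11. XLOC_006762, for example, made up 135321 CPM at 66 hpf, against 108206 CPM at 52 hpf, 90677 CPM in ACME cells and 23416 CPM in methanol cells within the cluster.

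Cell by cell, the picture was graded. The 22 members together made up a median of 40.2% of the UMIs of a cluster 23 cell at 66 hpf, against 9.26% at 52 hpf, 4.92% in the ACME sample and 2.55% in the methanol sample. After each cell with at least 500 UMIs was thinned to 500, the medians were 39.4, 20.2, 6.90 and 3.80% in the same order, over 67, 24, 42 and 18 cells. The cells of the cluster varied widely at 52 hpf, with quartiles of 2.40 and 34.8%, against 31.5 and 46% at 66 hpf. When all cells over 10000 UMIs were left out of every matrix, a choice made after seeing the data, 0 of these 22 genes stayed among the 150 highest and their median rule value was -0.07. UMIs of the most abundant members also appeared widely at low level: XLOC_006762 had a UMI in 37.9% of cells of all other clusters at 66 hpf, against 33.2% at 52 hpf, and in 100% and 90% of cluster 23 cells.

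**Figure D3:**
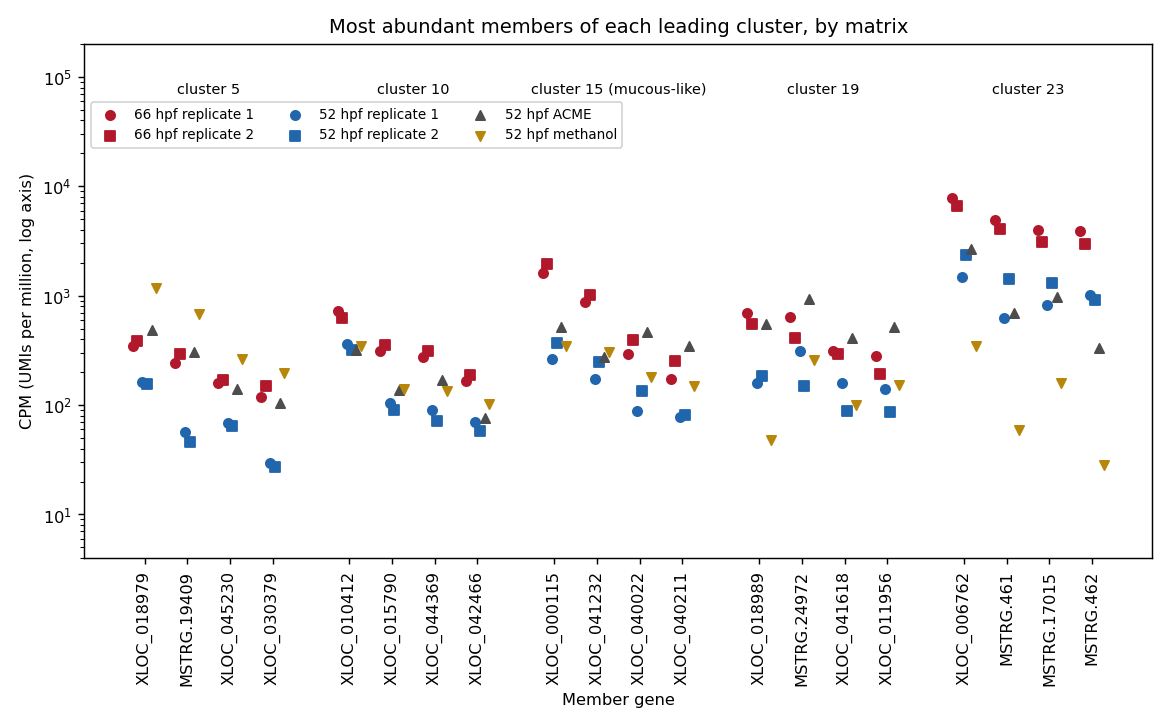
CPM (log axis) of the 4 most abundant members at 66 hpf of each main leading cluster in the 6 matrices. The 66 hpf replicates lie above both 52 hpf replicates throughout; for cluster 23 the methanol value is the lowest, 28.2 CPM for MSTRG.462, and for 4 cluster 5 members it is the highest.

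Cluster 5 led the largest number of members, 55, which were of low to moderate abundance. It was a cluster of 901 cells whose leading genes, XLOC_036377, XLOC_013607 and XLOC_000749, were 30.4 to 38.6 times the level in other cells; XLOC_000749 encodes a protein with spectrin repeats, calponin homology domains and EF hands. No marker list named it. Of these members, 0 of 55 were at least 2-fold above all 3 samples of 52 hpf at 66 hpf, against 0.31% of all ranked genes, and 43 were at least 2-fold higher in both earlier samples than at 52 hpf, against 11%. Their median log2 ratio at 66 hpf was 0.01 over the ACME sample and -0.96 over the methanol sample, beside -0.35 and -0.82 for all ranked genes.

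MSTRG.19409 had 241 and 294 CPM in the 66 hpf replicates, against 56.8 and 46.3 CPM in the 52 hpf replicates, 305 CPM in the ACME sample and 675 CPM in the methanol sample. XLOC_030379 had 118 and 150 CPM at 66 hpf, against 29.6 and 27.4 CPM at 52 hpf, 103 CPM in ACME cells and 197 CPM in methanol cells. In both, the 52 hpf replicates were the lowest values and the methanol sample the highest, and the ACME values fell within or near the range of the 66 hpf replicates. XLOC_003106 had 78.9 and 91.9 CPM at 66 hpf, against 18.9 and 13 CPM at 52 hpf, 39.3 CPM in ACME cells and 90.7 CPM in methanol cells, and was one of 2 members of this cluster at least 2-fold higher at 66 hpf than in the ACME sample. MSTRG.20255 had 36.5 and 49.5 CPM at 66 hpf, against 6.88 and 7.05 CPM at 52 hpf, 46.1 CPM in ACME cells and 107 CPM in methanol cells. XLOC_031072 had 34.4 and 36.7 CPM at 66 hpf, against 6.88 and 4.43 CPM at 52 hpf, 28.6 CPM in ACME cells and 65 CPM in methanol cells. The low group in each of these genes was the newer 52 hpf sample.

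A domain was recorded for 8 cluster 5 members. XLOC_018979, with domains that include one of the juvenile hormone binding protein family of insects, was the most abundant of them, with 346 and 386 CPM at 66 hpf, against 164 and 157 CPM at 52 hpf, 489.7 CPM in ACME cells and 1173 CPM in methanol cells. XLOC_014674 encodes a protein with calponin homology domains and spectrin repeats, modules of actin crosslinking proteins, and is itself on the epidermis-like marker list, from which it was left out when clusters were named. It had 116 and 147 CPM at 66 hpf, against 53.3 and 65.4 CPM at 52 hpf, 219 CPM in ACME cells and 733 CPM in methanol cells. XLOC_043151, with immunoglobulin domains beside a protein kinase domain, had 118 and 145 CPM at 66 hpf, against 59.3 and 69.9 CPM at 52 hpf, 206 CPM in ACME cells and 759 CPM in methanol cells. Both had their highest value in methanol cells, more than 4-fold above 66 hpf, and the summed level of the 13 other epidermis-like markers was likewise highest there, at 24043 CPM, against 10656 and 11240 CPM at 66 hpf, 11704 and 11834 CPM at 52 hpf and 17336 CPM in the ACME sample; the part of these markers in the result was not tested. XLOC_045230 carries the domains of phosphoenolpyruvate carboxykinase, an enzyme of gluconeogenesis, and had 158 and 168 CPM at 66 hpf, against 68.2 and 64.8 CPM at 52 hpf, 140.3 CPM in ACME cells and 261 CPM in methanol cells. The others were XLOC_019403, with a PDZ domain, XLOC_039096, with RhoGAP and RhoGEF domains that switch small GTPases, MSTRG.7757, with AAA ATPase domains, and XLOC_032802, a metalloprotease of the ADAM type on the aboral list. XLOC_032802 had 11.3 and 11.3 CPM at 66 hpf, against 1.61 and 1.64 CPM at 52 hpf, 9.46 CPM in ACME cells and 15.1 CPM in methanol cells.

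Unlike cluster 23, cluster 5 differed in the number of its cells. It held 8.61% (7.88 to 9.39%) of cells at 66 hpf, against 1.14% (0.779 to 1.62%) at 52 hpf, 5.66% (5.00 to 6.38%) in the ACME sample and 5.39% (4.58 to 6.29%) in the methanol sample. The newer 52 hpf sample had the lowest share, and the intervals cover counting error within 1 sample each. Its cells were shallow everywhere, with a median UMI count of 667 at 66 hpf, against 877 at 52 hpf, 763 in ACME cells and 1026 in methanol cells. Mitochondrial UMIs made up 5.46% at 66 hpf, against 2.97% at 52 hpf, 3.29% in ACME cells and 2.73% in methanol cells; their part in the difference was not tested. The 55 members together made up a median of 6.46% of the UMIs of a cluster 5 cell at 66 hpf, against 1.55% at 52 hpf, 5.57% in ACME cells and 5.65% in methanol cells. The 52 hpf values rest on 31 cells, and a low 52 hpf level was part of the choice of members. MSTRG.5921 had a UMI in 75.5% of cluster 5 cells at 66 hpf and 32.3% at 52 hpf, against 6.01% and 3.03% of all other cells. Thinned to 500 UMIs, the shares in cluster 5 were 65.7% (60.4 to 70.7%) of 341 cells at 66 hpf and 28% (12.1 to 49.4%) of 25 cells at 52 hpf.

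Within cluster 5, 36 of the 55 members were at least 2-fold higher at 66 hpf than at 52 hpf, against 37.1% of the 4119 genes with at least 20 UMIs there. The 52 hpf cells of this cluster gave only 35436 UMIs, so that 1 UMI is worth 28.2 CPM. The median member ratio was 1.53, beside 0.62 for those genes. Without 52 hpf replicate 1 the count was 43 of 55 and the median 1.87, and without 52 hpf replicate 2 they were 32 and 1.33. Both replicate pairs gave at least 2-fold for 29 members. The members were also higher outside the cluster, at a median log2 ratio of 0.72, in the same contrast that chose them. For 43 of the 55 the cluster with the next highest level was cluster 10.

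**Figure D4:**
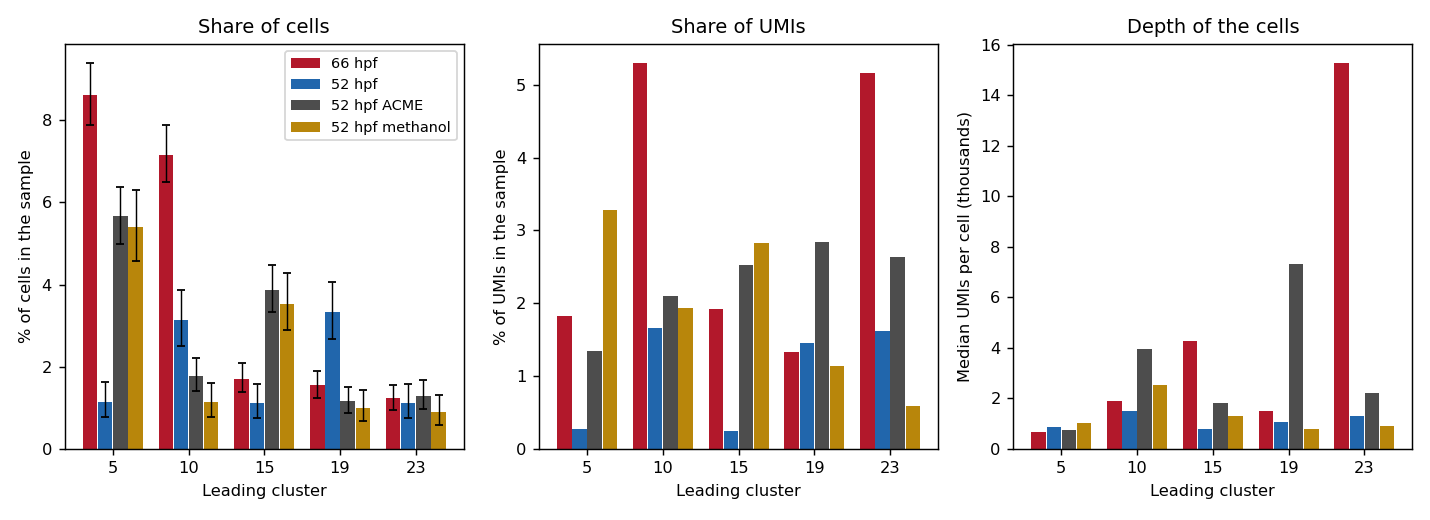
Share of cells (left, with exact 95% binomial intervals), share of UMIs (middle) and median UMIs per cell (right) for the 5 main leading clusters in the 4 samples. Clusters 5 and 10 took a higher share of cells at 66 hpf, 8.61 and 7.16%, than at 52 hpf, 1.14 and 3.14%, whereas cluster 23 differed in depth per cell.

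Cluster 10, with 585 cells led by XLOC_015247, XLOC_006274 and XLOC_001567, led 40 members, of which 2 had a recorded domain and 2 were on the aboral list. It met none of the marker lists. XLOC_019944 had 182 and 152 CPM in the 66 hpf replicates, against 37.2 and 34.8 CPM in the 52 hpf replicates, 41.8 CPM in the ACME sample and 34.4 CPM in the methanol sample, and both 66 hpf replicates were more than 3-fold above every other value. XLOC_013332 showed the same order, with 48.6 and 57.8 CPM at 66 hpf, against 12.3 and 15.4 CPM at 52 hpf, 12.6 CPM in ACME cells and 14.6 CPM in methanol cells. XLOC_043846 and XLOC_043836, in contrast, were low only in the newer 52 hpf sample. XLOC_043836 had 43.4 and 45.7 CPM at 66 hpf, against 7.18 and 5.74 CPM at 52 hpf, 53 CPM in ACME cells and 64.6 CPM in methanol cells. XLOC_022678 was higher in both earlier samples than at 66 hpf, with 54.7 and 69.4 CPM at 66 hpf, against 13.9 and 13.3 CPM at 52 hpf, 97.4 CPM in ACME cells and 147 CPM in methanol cells.

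The most abundant member here was XLOC_010412, which carries the domains of glutamine synthetase, the enzyme that joins ammonia to glutamate. It had 725 and 629 CPM at 66 hpf, against 363 and 316 CPM at 52 hpf, 319.9 CPM in ACME cells and 349.9 CPM in methanol cells, so that all 3 samples of 52 hpf lay within a narrow range below 66 hpf. It was widely expressed, with 24.4% of its UMIs in cluster 10. XLOC_015790 had 313 and 352 CPM at 66 hpf, against 104 and 89.4 CPM at 52 hpf, 138 CPM in ACME cells and 142 CPM in methanol cells. XLOC_044369 had 277 and 311 CPM at 66 hpf, against 91.1 and 71.2 CPM at 52 hpf, 168 CPM in ACME cells and 134 CPM in methanol cells. XLOC_042466 had 165 and 190.2 CPM at 66 hpf, against 70.3 and 57.6 CPM at 52 hpf, 75.4 CPM in ACME cells and 101 CPM in methanol cells. All 3 were highest at 66 hpf, with the earlier samples between the 66 and 52 hpf values. XLOC_043892, whose secreted protein carries a von Willebrand factor type A domain, a module of adhesion and matrix proteins, had 31.7 and 42.1 CPM at 66 hpf, against 7.62 and 7.55 CPM at 52 hpf, 32.2 CPM in ACME cells and 65.9 CPM in methanol cells. XLOC_004646 was among the 5 members lowest at 66 hpf against the ACME sample, at a log2 ratio of -0.99.

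Cluster 10 held 7.16% (6.49 to 7.88%) of cells at 66 hpf, against 3.14% (2.51 to 3.87%) at 52 hpf, 1.77% (1.40 to 2.20%) in the ACME sample and 1.14% (0.782 to 1.61%) in the methanol sample. The share was highest at 66 hpf and next highest in the newer 52 hpf sample. Without integration, 9 of the 40 members kept the cluster matched to cluster 10, and its share was not computed in that setting. Their median UMI count was 1876 at 66 hpf, against 1478 at 52 hpf, 3932 in ACME cells and 2524 in methanol cells. The members together made up similar shares of these cells, a median of 3.47% of UMIs at 66 hpf, against 3.23% at 52 hpf, 4.11% in ACME cells and 2.77% in methanol cells. Within the cluster the median log2 ratio of 66 hpf over 52 hpf was 0.08, and 4 of 40 members were at least 2-fold higher, against 7.8% of the 4015 genes with at least 20 UMIs there. Those 4 included XLOC_043846, with 1580 CPM at 66 hpf, against 687 CPM at 52 hpf, 2995 CPM in ACME cells and 2671 CPM in methanol cells within the cluster, and XLOC_043836, with 575 CPM at 66 hpf, against 154 CPM at 52 hpf, 1416 CPM in ACME cells and 1926 CPM in methanol cells. Outside the cluster all 40 were higher at 66 hpf, by a median log2 ratio of 0.85. Over all leading clusters, 142 of the 150 members were higher outside their own, and no share over all genes was computed. The same contrast chose the members, so this is not read as a result about them. For 21 of the 40 the next cluster was cluster 13, which met no marker list and held 4.86 and 4.66% of cells at 66 hpf, against 1.92 and 1.62% at 52 hpf, 1.40% in the ACME sample and 2.86% in the methanol sample.

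The mucous-like cluster 15, in which all 7 fixed mucous markers were over 4 times their level in other cells, led 13 members. 7 of them were on the aboral list and 4 on the oral list, and 8 encode proteins with a signal peptide. XLOC_000115, whose values are given above, and XLOC_041232 were the most abundant, both secreted by prediction, on the aboral list and without a recorded domain. XLOC_041232 had 869 and 1009 CPM in the 66 hpf replicates, against 172 and 249 CPM in the 52 hpf replicates, 275 CPM in the ACME sample and 302 CPM in the methanol sample. XLOC_001423, of the cysteine-rich secretory protein family, had 85.2 and 101 CPM at 66 hpf, against 23 and 28.2 CPM at 52 hpf, 24.1 CPM in ACME cells and 22.4 CPM in methanol cells. In these 3 genes both 66 hpf replicates were more than 2-fold above every value from 52 hpf larvae. XLOC_029731, with a C2 domain, a membrane-binding module, had 199 and 211 CPM at 66 hpf, against 66.1 and 65.9 CPM at 52 hpf, 100.3 CPM in ACME cells and 73.6 CPM in methanol cells.

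Other members of the mucous-like cluster stood differently to the ACME sample. XLOC_040022 encodes a secreted protein with a ShK-like domain, named for a sea anemone toxin, and had 293 and 396 CPM at 66 hpf, against 87.9 and 135 CPM at 52 hpf, 469 CPM in ACME cells and 182 CPM in methanol cells. XLOC_040211 had 172 and 251 CPM at 66 hpf, against 78.1 and 80.7 CPM at 52 hpf, 350.1 CPM in ACME cells and 150.5 CPM in methanol cells. Both are on the oral list, and their ACME values exceeded both 66 hpf replicates. The astacin metallopeptidase XLOC_031858 had 28.5 and 35.1 CPM at 66 hpf, against 8.49 and 7.71 CPM at 52 hpf, 52.1 CPM in ACME cells and 34 CPM in methanol cells. Its ACME value, too, was the highest. XLOC_032509, with tubulin domains, had 52.7 and 48.8 CPM at 66 hpf, against 17.3 and 18.7 CPM at 52 hpf, 46.2 CPM in ACME cells and 35.1 CPM in methanol cells. MSTRG.20250, with EGF domains, had 15.6 and 20.1 CPM at 66 hpf, against 4.98 and 4.26 CPM at 52 hpf, 9.11 CPM in ACME cells and 12.9 CPM in methanol cells. XLOC_015309, with the extracellular hormone receptor domain of secretin-type G protein-coupled receptors, was at a low level, with 8.10 and 8.66 CPM at 66 hpf, against 1.17 and 1.97 CPM at 52 hpf, 2.36 CPM in ACME cells and 3.92 CPM in methanol cells.

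The mucous-like cells were 1.71% (1.38 to 2.09%) of cells at 66 hpf, against 1.11% (0.749 to 1.58%) at 52 hpf, 3.87% (3.32 to 4.48%) in the ACME sample and 3.53% (2.88 to 4.28%) in the methanol sample. The 66 hpf replicates themselves differed, at 1.23 and 2.15%. Their median UMI count was 4262 at 66 hpf, against 788 at 52 hpf, 1820 in ACME cells and 1315 in methanol cells, so that the cluster gave 1.92% of all UMIs at 66 hpf, against 0.247% at 52 hpf. The summed level of the 7 mucous markers was 2487 and 3111 CPM at 66 hpf, against 720 and 872 CPM at 52 hpf. The ACME and methanol samples, at 2811 and 2256 CPM, were close to 66 hpf. The list includes XLOC_005440, MSTRG.7476 and MSTRG.6587, which ranked above the lowest member and were passed over as named genes. The rise of this sum is therefore not separate from the rule. Of the 7 markers, 3 were at least 2-fold higher at 66 hpf than at 52 hpf, the same genes that were passed over. XLOC_000115 was, unlike the marker sum, lower in the ACME and methanol samples than at 66 hpf. Within the cluster it made up 62206 CPM at 66 hpf, against 24539 CPM at 52 hpf, 14046 CPM in ACME cells and 4164 CPM in methanol cells. XLOC_041232 there made up 35742 CPM at 66 hpf, against 15075 CPM at 52 hpf, 5680 CPM in ACME cells and 2231 CPM in methanol cells. For both, the level within these cells was highest at 66 hpf and lowest in methanol cells, but the 52 hpf replicates were far apart, at 11845 and 37927 CPM for XLOC_000115 and 3541 and 27238 CPM for XLOC_041232.

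Of the 13 members, 8 were at least 2-fold higher at 66 hpf within the mucous-like cluster, against 19.5% of the 1904 genes with at least 20 UMIs there, and the median log2 ratio was 1.25, beside -0.05. The 52 hpf side rests on 30 cells with 31908 UMIs, and its replicates differed: the 13 members made up 1.95% of the UMIs of 17 cells in replicate 1 and 9.88% of those of 13 cells in replicate 2. Without 52 hpf replicate 1 the count was 5 of 13 and the median log2 ratio 0.71, and without 52 hpf replicate 2 they were 13 of 13 and 2.67. Both replicate pairs gave at least 2-fold for 5 members. Per cell, the members made up a median of 11.1% of UMIs at 66 hpf, against 0.713% at 52 hpf. XLOC_031858 and XLOC_015309 had no UMI among the 52 hpf cells of the cluster. With a floor of 3 UMIs over those cells they were at least 8.92-fold and at least 2.24-fold higher at 66 hpf. Few cells carried that level: over all cells at 66 hpf, the 5 with most UMIs gave 62.5% for XLOC_031858 and 41.4% for XLOC_015309. UMIs of abundant members were also spread over other cells: XLOC_000115 had a UMI in 37.3% of all other cells at 66 hpf and in 36.6% at 52 hpf, and only 19.3% of its 52 hpf UMIs were in mucous-like cells, against 67.1% at 66 hpf. In mucous-like cells thinned to 500 UMIs, 97.8% had a UMI of XLOC_000115 at 66 hpf, against 65.2% at 52 hpf, 82.3% in the ACME sample and 60.2% in the methanol sample.

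**Figure D5:**
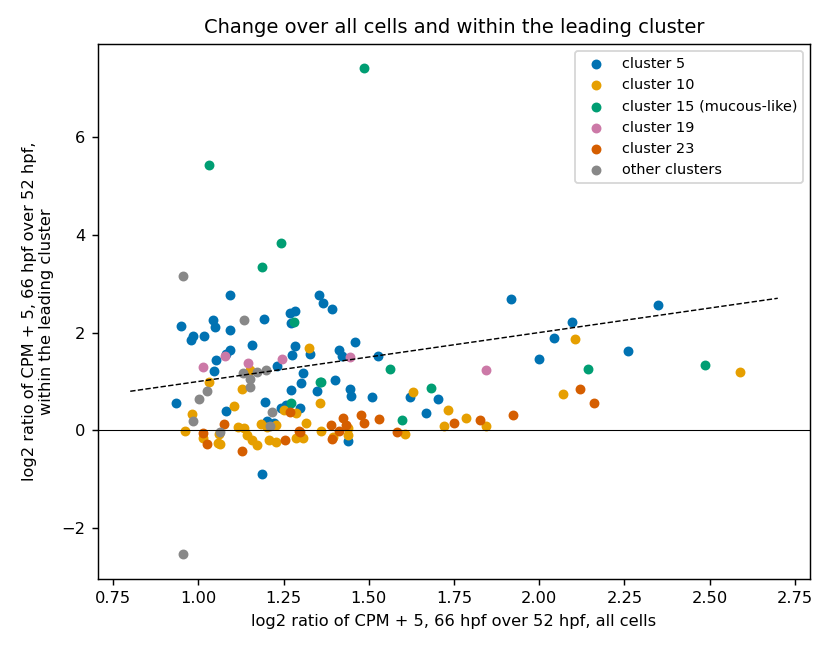
Log2 ratio of CPM + 5 at 66 hpf over 52 hpf summed over all cells (x axis, used by the rule) and within the member's leading cluster (y axis) for the 150 members; the dashed line marks equal values. Members led by clusters 10 and 23 lie near 0 on the y axis, with medians of 0.08 and 0.12, and those led by clusters 5, 15 and 19 mostly above it; the 2 highest points of cluster 15, XLOC_031858 and XLOC_015309, rest on 0 UMIs at 52 hpf.

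Cluster 19, with 253 cells led by XLOC_000486, a C-type lectin gene, MSTRG.4713 and MSTRG.17527, led 6 members with no recorded domain. Of the 5 main clusters it alone took a smaller share of cells at 66 hpf than at 52 hpf: it held 1.54% (1.23 to 1.91%) of cells at 66 hpf, against 3.32% (2.68 to 4.07%) at 52 hpf, 1.15% (0.861 to 1.52%) in the ACME sample and 0.999% (0.665 to 1.44%) in the methanol sample. All 6 members were at least 2-fold higher at 66 hpf within its cells, against 3.94% of the 1244 genes with at least 20 UMIs there, with log2 ratios of 1.23 to 1.53. The typical cell did not show this: the 6 members made up a median of 0.448% of the UMIs of a cell at 66 hpf, against 0.446% at 52 hpf, with upper quartiles of 13.2 and 5.90%. MSTRG.24972 had 641 and 412 CPM at 66 hpf, against 313 and 151 CPM at 52 hpf, 932 CPM in ACME cells and 258 CPM in methanol cells over all cells, and 37698 CPM at 66 hpf, against 14495 CPM at 52 hpf, 31719 CPM in ACME cells and 19332 CPM in methanol cells within the cluster. XLOC_011956 had 281 and 191 CPM at 66 hpf, against 140.5 and 85.8 CPM at 52 hpf, 517 CPM in ACME cells and 152 CPM in methanol cells. XLOC_021374 had 73.6 and 50.7 CPM at 66 hpf, against 29.3 and 24.3 CPM at 52 hpf, 379 CPM in ACME cells and 38.3 CPM in methanol cells, the lowest 66 hpf over ACME log2 ratio of the set at -2.51. The ACME sample thus exceeded 66 hpf in these 3 genes. In the ACME sample 22 of the 51 cells of the cluster had over 10000 UMIs, against 7 of 84 at 66 hpf, and without cells of that depth none of the 6 genes stayed among the 150 highest. Few cells carried these UMIs: for MSTRG.24972 the 5 cells with most UMIs gave 53.5% of its UMIs at 66 hpf and 38.6% at 52 hpf. XLOC_018989, chosen for mention after its values were seen, encodes a protein with a signal peptide and is on the oral list. Over all samples it had 35.4% of its UMIs in cluster 19, with cluster 23 next in level. By sample this share was 18.9% at 66 hpf, against 32.1% at 52 hpf, 58.6% in ACME cells and 31% in methanol cells. XLOC_018989 had 697 and 551 CPM at 66 hpf, against 158 and 185 CPM at 52 hpf, 554 CPM in ACME cells and 47.6 CPM in methanol cells.

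Few members were led by the clusters named as neural or neurosecretory. XLOC_013806, the second most abundant member, was led by the neurosecretory-like cluster 14, in which all 18 markers of that list were over 4 times their level elsewhere. It is on the aboral list, its protein has a signal peptide, and the tables record several unrelated domains for it. It had 4656 and 4576 CPM in the 66 hpf replicates, against 2134 and 1815 CPM in the 52 hpf replicates, 1759 CPM in the ACME sample and 1406 CPM in the methanol sample, with both 66 hpf replicates more than 2-fold above every other value. Within the cluster it made up 93590 CPM at 66 hpf, against 71815 CPM at 52 hpf, 74194 CPM in ACME cells and 56902 CPM in methanol cells, and outside it 1738 CPM at 66 hpf, against 512 CPM at 52 hpf. The log2 ratio of 66 hpf over 52 hpf was 0.38 within the cluster and 1.75 outside it. The summed level of the neurosecretory-like markers was 5373 and 5313 CPM at 66 hpf, against 4539 and 2514 CPM at 52 hpf. It was 1911 CPM in the ACME sample and 1072 CPM in the methanol sample. The list includes XLOC_042849, passed over as a named gene with a rule value of 1.32, so this sum is not separate from the rule. Of the 18 markers, 1 was at least 2-fold higher at 66 hpf than at 52 hpf, the passed-over XLOC_042849 itself. The part of these markers in the result was not tested. 4 members were led by the GLWamide-like cluster 24, neurons defined by a neuropeptide family known to trigger metamorphosis in hydrozoan planulae. Among these, XLOC_008415, a secreted metalloprotease with reprolysin and thrombospondin type 1 domains, had 42.3 and 40 CPM at 66 hpf, against 11.6 and 18.7 CPM at 52 hpf, 31.1 CPM in ACME cells and 24.6 CPM in methanol cells. XLOC_010822, with a domain of unknown function, had 78.4 and 77.6 CPM at 66 hpf, against 38.1 and 33.1 CPM at 52 hpf, 58.5 CPM in ACME cells and 62.2 CPM in methanol cells. It was widely expressed, with 23.7% of its UMIs in cluster 24 at 66 hpf and 14.9% at 52 hpf. In the ACME and methanol samples these shares were 11.6 and 5.11%. For XLOC_008415 the share at 66 hpf was 44.9%. No member was led by the QYFamide-like or HFRIamide-like clusters. Clusters that met no marker list are not counted here, among them cluster 21, which led 2 members and whose leading gene was MSTRG.18917.

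By place in the larva, 14 members were on the study's aboral list and 17 on its oral list, or 9.33 and 11.3% of 150, against 2.7 and 0.794% of all ranked genes. The oral members were mainly those of cluster 23, 11 of 17, and of the mucous-like cluster, 4 of 17, while 7 of the 14 aboral members were led by the mucous-like cluster. Of the 55 members led by cluster 5, 53 were on neither list, as were 38 of the 40 led by cluster 10. Predicted signal peptides were recorded for 19 members, all of them on one of the 2 lists, since the tables give that prediction only for listed genes. A Pfam domain was recorded for 27 members, against 14.1% of all ranked genes, but only 44 of the 150 appear in the tables, so that a missing domain says nothing about the protein. Between the earlier samples, 18 of 22 cluster 23 members were at least 2-fold lower in methanol than in ACME cells, against 1.85% of all ranked genes, and 31 of 55 cluster 5 members at least 2-fold higher, against 13.7%.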

How the data were processed

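Cells of whole Clytia planulae were profiled by 10x single-cell RNA-seq in 4 samples and 6 matrices. The deposited values are UMI counts per gene and barcode, which the authors made with STARsolo per the submitters' processing notes; its version and the genome build are not given in the sources used here. Barcodes with 300 to 75000 UMIs, 200 to 5000 genes and at most 20% mitochondrial UMIs were kept. No doublet caller was run and no cluster was removed. UMIs were summed per matrix, and ratios were taken of CPM + 5, so that changes of low genes are understated. Clustering used scanpy 1.11.5 on log values scaled to 10000 UMIs per cell, 22 principal components, a recoded Harmony integration over the 6 matrices, 50 neighbours and Leiden resolution 1 (leidenalg 0.10.2). A cluster was named where at least 3 markers of a list, and most of that list, were over 4 times their level in other cells. The ranking was tested on simulated data. These held planted changes and counting error only, so they check the code and not differences between dissociations or cells. With 1 biological sample per age, no test was run; intervals are exact 95% Poisson or binomial ones and cover counting error only.

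The members and gene lists were chosen with earlier results of these data known. Genes were named as follows: the 15 highest rule values, the 4 members with most UMIs in each cluster that led at least 8 members, the 5 highest and 5 lowest ratios over the ACME sample, the 5 highest levels, and listed members with a Pfam domain; others with a recorded domain or signal peptide are given by group. Domains, signal peptides and the aboral and oral lists came from the study's supplementary tables, some of them shortened here; 44 of 150 members matched. Alternatives tried were other pseudocounts, folds, UMI minimums, resolutions, no integration, TMM library sizes (edgeR 4.0.16), all barcodes, and each replicate left out. Leaving out cells over 10000 UMIs and subtracting the median of all genes were added after the data were seen.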

Additional observations from a re-analysis of the deposited data

How the results depend on the processing

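No paired analysis was possible because no result comes from a test; the rule's 2 ratios set captures side by side for ranking only, and within the leading cluster 46 of 150 members were at least 2-fold higher in both, against 60 with the replicates summed and 58 to 64 with a replicate left out, a setting added after the data were seen. Of the 150 members, 93 stayed among the 150 highest without cells over 10000 UMIs, an alternative chosen after seeing the data; those lost included all 22 led by cluster 23 and all 6 led by cluster 19. Leaving out each replicate in turn kept 112 to 128, and the other settings kept 104 to 139. The count of members above the ACME sample at 66 hpf was 47 at 1.5-fold (3.49% of all ranked genes) and 7 at 4-fold (0.165%), and 28 to 32 with a replicate left out. Above the methanol sample it was 18 at 4-fold (0.533%), 75 with TMM library sizes (14.7%) and 73 with the median of all genes subtracted (15.8%), beside 3.45% for the 42 reported, so the background moved with the count, against 41 to 43 with a replicate left out. Members at least 2-fold higher in the ACME sample than at 52 hpf were 30 with a pseudocount of 20 (3.59%) and 40 with the median subtracted (3.41%), and were 71 to 76 with a replicate left out; for methanol over 52 hpf they were 58 (22.4%), 52 (11%), 64 without cells over 10000 UMIs (37.5%) and 76 to 77 with a replicate left out. The causes were not tested. The matched leading cluster was kept by 148, 147 and 145 members under resolutions 0.6 and 1.5 and with members among the variable genes, but by 107 without integration, where 9 of the 40 led by cluster 10 kept theirs. The 31 and 30 cells at 52 hpf in clusters 5 and 15 limit the values within them; without 52 hpf replicate 1 or 2, 5 and 13 of the 13 led by cluster 15 were at least 2-fold higher there.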
